A study of Mus musculus with 5 samples.

Results

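Mitochondria make few of their own proteins, and the genes described here encode the route by which the others enter the organelle and the chaperones and proteases that handle them afterwards. The set holds 48 of the 15116 genes listed in the deposited table (12617 of them protein-coding), namely the 24 protein-coding genes whose symbol opens with Tomm or Timm and a digit and 24 genes chosen by symbol, all of which had values. They were divided into 32 genes of the import machinery and 16 genes of quality control, which here means folding, degradation and the scaffolds of the inner membrane. The choice used names and not measured values, although earlier results of these data were known when it was made.

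Precursor proteins are bound by receptors of the outer membrane and threaded through the TOM pore. From there, proteins with a cleavable presequence cross the inner membrane through the TIM23 channel, pulled by a motor built around mitochondrial Hsp70, while carrier proteins are escorted by small TIM chaperones to TIM22 and small intermembrane-space proteins are trapped by a disulfide relay. In the matrix, presequences are cut off, chaperonins fold the arriving chains, and proteases of the matrix and inner membrane remove those that fail. Heart muscle cells, which are packed with mitochondria, depend on all of these steps.

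RNA was measured in mouse hearts by bulk 3′ tag sequencing, in which each library reads the ends of polyadenylated transcripts. The 2 knockout libraries came from hearts of genotype Immtfl/fl-Myh6-MCM, in which the MerCreMer recombinase, driven by the Myh6 promoter of cardiomyocytes, removes the loxP-flanked exon 4 of Immt once tamoxifen is given. These mice received tamoxifen at 6 weeks of age and their hearts were taken 10 weeks later. The 3 control libraries came from hearts of genotype Immt+/+-Myh6-Cre, which carry intact Immt and a constitutive Cre from the same promoter, are likewise labelled as injected with tamoxifen and are described as age-matched, with no time in their labels. Immt encodes Mic60, a core subunit of the MICOS complex at the junctions of mitochondrial cristae. The transgene differs between the groups together with the Immt genotype, so that effects of the recombinase and of the deletion cannot be told apart. The labels give each library as a separate sample, the methods take the mouse as the experimental unit, and with 2 against 3 libraries an exact permutation test cannot go below p = 0.1.

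The deposited values are normalized CPM (read counts scaled for library depth), as the mean and the SD of each group, with none for a single library. From these the 2 knockout values of a gene follow exactly, without an order, whereas for the 3 control libraries the text gives the mean and the widest range that the SD allows. Effective library sizes worked back from the table were 14.1 to 15.2 M reads in the knockout and 12.1 to 13.6 M in the control, the lowest of which rests on 1 gene. The median coefficient of variation of the 48 genes was 5.18% in the knockout and 6.32% in the control. Immt was at 15.98 and 19.8 CPM in the knockout libraries and at 254 CPM in the control (245 to 263), or 7.04% of the control level, although a 3′ tag does not read the deleted exon. Cardiomyocyte markers were present in both groups, with 4 of 8 lower and 0 higher in the knockout, or 2 lower and 1 higher under library totals (summed level 19527 CPM in the knockout and 21938 CPM in the control), Ryr2 being the one furthest down at 0.408 of the control mean. Of the markers of other cells, 2 of 6 for macrophages, 1 of 6 for fibroblasts, 1 of 4 for mural cells, 0 of 6 for endothelium and 0 of 3 for erythroid cells were lower in the limma test, and 0 of these 25 were higher (5 lower and 0 higher at an unadjusted p below 0.05). Among all listed genes 12.9% were called lower and 13.3% higher at an adjusted p below 0.05. Under library totals 1 macrophage and 1 mural marker were lower, and none of the others, against 1363 of all 15116 listed genes. The summed levels of these markers in the knockout and the control were 151 and 206 CPM for macrophages, 391 and 450.4 CPM for fibroblasts, 199.7 and 228 CPM for mural cells, 249 and 236 CPM for endothelium, and 1938 and 3374 CPM for erythroid cells. In bulk hearts, fewer cells of a type and less RNA per cell cannot be told apart, and the part of these differences in the results below was not tested. Both sexes are described for the knockout line and males for the control line, and Y-linked genes were detected in all 5 libraries.

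Transcripts of import and quality control were more often higher than lower in Immt knockout hearts, and the largest rises were those of the protease gene Lonp1 and the matrix chaperone genes Hspe1 and Hspa9. Of the 48 genes, 21 were higher, 3 were lower and 24 did not pass the test, a limma moderated test on log2(mean + 0.5 CPM) with a Benjamini-Hochberg adjusted p below 0.05 over all listed genes. Among all listed genes 13.3% were called higher and 12.9% lower. The median log2 fold change, knockout over control, was 0.25 for the 48 genes and −0.02 for all listed genes. Both knockout libraries lay above any control value that the SD allows for 33 of the 48 and below it for 3, against 24.5% and 23.9% of all listed genes. The scale matters to these counts. Scaled by library totals instead, every log2 fold change shifts upward by 0.13, and the share of all calls that are higher was 69.55% in place of 50.87%. On that scale 32 of the 48 genes were higher and 2 lower, against 3113 and 1363 of all 15116 listed genes. Transcripts of the mitochondrial genome took 32.2% of the knockout total and 36.7% of the control total. With totals that leave them out the shift was 0.03, and the calls of the 48 genes were those on the authors' scale.

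Within the import machinery 12 of 32 genes (37.5%) were higher, 3 (9.38%) lower and 17 not called, with a median log2 fold change of 0.19 (0.32 under library totals, where 21 were higher and 2 lower). With only the knockout value nearer to the control, fewer import genes were called. Within quality control 9 of 16 (56.3%) were higher, 0 lower and 7 not called in the limma test (10 higher and 0 lower at an unadjusted p below 0.05). The median was 0.36 (0.49 under library totals, where 11 were higher), and fewer genes were called with only the nearer knockout value. The difference between the medians was 0.18 and is unaffected by the scale, since a change of scale moves both alike. Summed levels of the 2 classes are given on the authors' scale, and as CPM they are relative amounts. Quality control genes summed to 2172 CPM in the knockout and 1278 CPM in the control, import genes to 2141 CPM in the knockout and 1833 CPM in the control. Much of the quality control sum belongs to a few matrix chaperones, described below. Genes of at least 5 CPM in 1 group, a level that all of the 48 but Tomm20l reached, had 17.95% of 9508 higher and 14.6% lower, with a median of 0.01. Members of a class are not replicates, and no test of the difference between the classes was made.

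**Figure D1:**
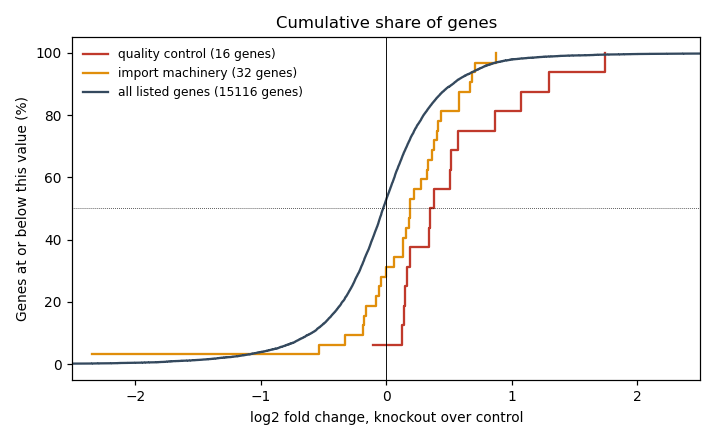
The cumulative share of genes (vertical axis, percent) is plotted against the log2 fold change of knockout over control (horizontal axis) for 16 quality control genes, 32 import genes and all 15116 listed genes. The dotted line marks the medians, 0.36 for quality control, 0.19 for import and −0.02 for all listed genes.

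The TOM group, named for the entry gate of the outer membrane, had 4 of 10 genes higher and 1 lower. Its median log2 fold change was 0.20 (7 higher and 1 lower under library totals, median 0.33). Beside subunits of the complex, the group counts the cytosolic cochaperone Tomm34 and the paralogs Tomm20l, the gene called lower, and Tomm40l. Its 3 receptors all rose. Tomm20, the receptor that binds presequences, was at 110.7 and 119.9 CPM in the knockout libraries, against a control mean of 71.6 CPM (63.7 to 79.5). Tomm22, the central receptor that also holds the complex together, was at 107 and 116 CPM in the knockout libraries, against 82.3 CPM in the control (76.3 to 88.4). For both receptors every knockout value lay clear of the controls, with log2 fold changes of 0.68 ± 0.09 (SE, adjusted p = 0.00092) for Tomm20 and 0.44 ± 0.08 (adjusted p = 0.0042) for Tomm22. Tomm70a, the receptor for carrier precursors brought by cytosolic Hsp70 and Hsp90, was at 43.99 and 52.3 CPM in the knockout libraries, against 36.3 CPM in the control (30.8 to 41.9). Its lower knockout library stood just above that range, and the log2 fold change of 0.40 ± 0.12 passed narrowly (adjusted p = 0.044). Among the small subunits that steady the pore, Tomm5 was at 165 and 166 CPM in the knockout libraries, against 110.4 CPM in the control (103 to 118), a log2 fold change of 0.58 ± 0.07 (adjusted p = 0.00053). The 2 knockout values of Tomm5 nearly coincided.

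Tomm40, which forms the pore, was at 28.6 and 31.4 CPM in the knockout libraries, against 25.7 CPM in the control (23.7 to 27.7), with a log2 fold change of 0.22 (adjusted p = 0.13). It was called under library totals, at 0.35 (adjusted p = 0.026). Tomm7, the uncalled TOM gene with the highest control mean, was at 170.4 and 172 CPM in the knockout libraries, against 156 CPM in the control (149 to 164), and its log2 fold change was 0.13 (adjusted p = 0.18, and 0.017 under library totals). Tomm40l, a paralog of the pore gene, had 36.1 and 37.0 CPM in the knockout libraries, against 40.97 CPM in the control (34.2 to 47.8), and the groups overlapped. The remaining uncalled members, Tomm6 and the cytosolic cochaperone Tomm34, had log2 fold changes of 0.19 and −0.06. Under library totals Tomm6 was called (adjusted p = 0.036) and Tomm34 turned to 0.07.

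Tomm20l (ENSMUSG00000021078), a paralog of the receptor Tomm20, went the other way. Each knockout library held 1 read (0.0658 and 0.0711 CPM), against a control mean of 2.38 CPM (0.928 to 3.84), which corresponds to about 94 reads over the 3 control libraries. The ratio of knockout to control was 0.0286, with an exact 95% interval of 0.00342 to 0.106 that covers counting error only. The log2 fold change of −2.34 ± 0.33 (adjusted p = 0.0012) depends on the pseudocount and ran between −3.88 and −1.08 with pseudocounts of 0.1 and 2 CPM. The 3′ end of Tomm20l overlaps that of Timm9 on the opposite strand, and whether strand was used in counting is not given in the sources used here, so reads of the 2 genes cannot be told apart with certainty. Timm9 was at 27.6 and 30.2 CPM in the knockout libraries, against 32.99 CPM in the control (29.2 to 36.8).

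With only the knockout value nearer to the control, the log2 fold change was 0.38 for Tomm22 and 0.27 for Tomm70a. Neither was called then, in a test whose spread came from the control alone. Tomm70a was also not called with only the farther value (log2 fold change 0.52). As a bound, the control mean was moved toward the knockout by the most that leaving out 1 control library allows. Tomm70a then had an adjusted p of 0.079 in the limma test. In that setting the spread came almost wholly from the trend over all genes and little from the gene's own SDs. The last 500 bases of Tomm70a hold an exon of Nit2 on the opposite strand, and Nit2 had a log2 fold change of 0.24 (adjusted p = 0.089).

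**Figure D2:**
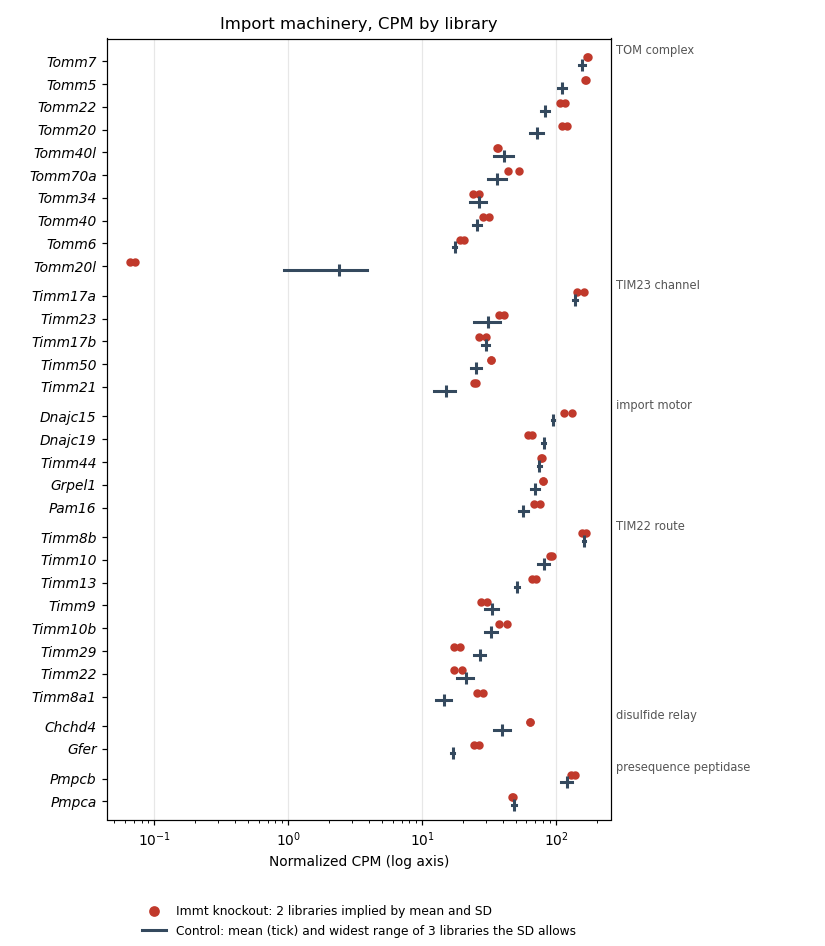
Normalized CPM (log axis) of the 32 import genes, grouped by role and ordered within a role by control mean. Red points are the 2 knockout libraries, as worked out from their mean and SD, and dark bars show the control mean (tick) with the widest range its 3 libraries can have. In 20 genes both red points lie right of the bar and in 3, Tomm20l, Dnajc19 and Timm29, left of it.

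The TIM23 channel, which passes presequence proteins through the inner membrane, had 2 of 5 genes higher and 0 lower, with a median log2 fold change of 0.33 (4 higher and 0 lower under library totals, median 0.45). Timm21, which links the channel to TOM and in human cells also takes part in the assembly of respiratory complexes, was at 24.3 and 25.3 CPM in the knockout libraries, against 14.95 CPM in the control (12.3 to 17.6). Timm50, the presequence receptor of the channel, was at 32.5 and 32.8 CPM in the knockout libraries, against 25.3 CPM in the control (23.3 to 27.3). Neither gene overlapped between the groups, and the log2 fold changes were 0.71 ± 0.13 (adjusted p = 0.0047) for Timm21 and 0.36 ± 0.09 (adjusted p = 0.021) for Timm50. With only the nearer knockout value the log2 fold change was 0.68 for Timm21 and 0.35 for Timm50, and neither was called. Timm50 was also not called with only the farther value (log2 fold change 0.37). With the control mean moved by the bound described above, its adjusted p in the limma test was 0.11. The channel-forming subunits were called under library totals alone, with adjusted p values of 0.025 for Timm17a and 0.046 for Timm23. Timm17a was at 143 and 160.4 CPM in the knockout libraries, against 138 CPM in the control (133 to 143), and Timm23 was at 37.3 and 41.1 CPM in the knockout libraries, against 31.2 CPM in the control (24.3 to 37.98). Timm17b, the X-linked paralog of Timm17a, had a log2 fold change of −0.08, or 0.04 under library totals.

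Genes of the import motor, which drives the chain inward with the matrix Hsp70, moved in both directions. The J proteins that activate this Hsp70 are a pair of paralogs, and they moved apart. Dnajc15 was at 114 and 132 CPM in the knockout libraries, against 94.6 CPM in the control (92.6 to 96.6), a log2 fold change of 0.38 ± 0.08 (adjusted p = 0.0079). Dnajc19, whose human counterpart is mutated in a childhood dilated cardiomyopathy with ataxia, was at 62.1 and 65.6 CPM in the knockout libraries, against 80.5 CPM in the control (78.2 to 82.8), a log2 fold change of −0.33 ± 0.07 (adjusted p = 0.0090). Both knockout libraries were above every control value for Dnajc15 and below every control value for Dnajc19. Under library totals Dnajc19 had a log2 fold change of −0.20 and was not called (adjusted p = 0.061). It shares its 3′ end with Fxr1 on the opposite strand (log2 fold change 0.13, adjusted p = 0.27) and has 1 annotated pseudogene of its name. Pam16, known from yeast as the partner that restrains such J proteins, was at 68.1 and 75.2 CPM in the knockout libraries, against 56.9 CPM in the control (52.7 to 61.05), a log2 fold change of 0.33 ± 0.09 (adjusted p = 0.022).

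With only the nearer knockout value the log2 fold change was 0.27 for Dnajc15, −0.29 for Dnajc19 and 0.26 for Pam16. None of these 3 motor genes was called then. Pam16 was also not called with only the farther value (log2 fold change 0.40). With the control mean moved by the bound described above, its adjusted p in the limma test was 0.072. Timm44, the anchor of the Hsp70 at the channel, was at 77.5 and 78.8 CPM in the knockout libraries, against 74.9 CPM in the control (73.2 to 76.6), and Grpel1, which exchanges its nucleotide, was at 79.1 and 79.8 CPM in the knockout libraries, against 69.6 CPM in the control (64.9 to 74.4). Neither was called, although both knockout values of each lay above the controls, and Grpel1 was called under library totals (adjusted p = 0.014).

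On the TIM22 route, 2 of 8 genes were higher and 1 was lower, and the median log2 fold change of 0.09 was the closest to that of all listed genes among the role groups with more than 2 members. The higher genes both belong to the Timm8 and Timm13 escort, a chaperone ring of the intermembrane space. Timm8a1, the counterpart of a human gene lost in deafness-dystonia syndrome, was at 25.8 and 28.2 CPM in the knockout libraries, against 14.5 CPM in the control (12.6 to 16.4). Timm13, its partner, was at 66.5 and 70.1 CPM in the knockout libraries, against 51.2 CPM in the control (49.5 to 52.95). Knockout and control values did not overlap for either, and the log2 fold changes were 0.88 ± 0.12 (adjusted p = 0.00088) for Timm8a1 and 0.41 ± 0.07 (adjusted p = 0.0040) for Timm13. Timm8b, the paralog of Timm8a1, was at 156 and 168 CPM in the knockout libraries, against 162 CPM in the control (159 to 165), and its log2 fold change was 0.00 ± 0.06. The difference between the paralogs was not tested. Timm8a1 is X-linked, and the sexes of the hearts are not in the labels. The Y-linked genes Ddx3y and Uty were present in both knockout libraries (33.0 and 36.5 CPM for Ddx3y, 9.45 and 10.1 CPM for Uty) and, by the range the SD allows, in every control library (28.9 to 33.5 CPM for Ddx3y, 11.4 to 12.4 CPM for Uty). Timm8b starts head to head with the complex II gene Sdhd, which was lower (log2 fold change −0.38, adjusted p = 0.0034).

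Timm29, a subunit known from the human complex, was at 17.2 and 19.3 CPM in the knockout libraries, against 26.7 CPM in the control (24.3 to 29.2), a log2 fold change of −0.54 ± 0.10 (adjusted p = 0.0059, and −0.41 under library totals). The channel gene Timm22 was at 17.3 and 19.9 CPM in the knockout libraries, against 21.1 CPM in the control (18.1 to 24.04), with overlap and no call. Timm10, which forms a ring with Timm9 that escorts carriers, was at 90.5 and 92.7 CPM in the knockout libraries, against 80.9 CPM in the control (73.3 to 88.5), and had a log2 fold change of 0.18 (adjusted p = 0.15). Timm10b had a log2 fold change of 0.28 (adjusted p = 0.086). Both knockout values of Timm10 and Timm10b lay above the controls, and both genes were called under library totals (adjusted p = 0.024 and 0.020), where 4 of the 8 genes were higher. Timm9 had a log2 fold change of −0.19. With only the nearer knockout value, Timm13 had an adjusted p of 0.071 and Timm29 of 0.098, while Timm8a1 kept its call at 0.027. An exon of Tmprss9 lies on the opposite strand within the last 500 bases of Timm13.

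Both genes of the disulfide relay, which folds and traps cysteine-rich proteins between the membranes, were higher. Chchd4, the oxidoreductase also called Mia40, was at 63.3 and 63.7 CPM in the knockout libraries, against 39.7 CPM in the control (34.5 to 44.9), a log2 fold change of 0.67 ± 0.10 (adjusted p = 0.0017). Gfer, the sulfhydryl oxidase that recharges it, was at 24.4 and 26.6 CPM in the knockout libraries, against 16.9 CPM in the control (16.4 to 17.3), a log2 fold change of 0.58 ± 0.09 (adjusted p = 0.0023). Knockout and control values stood apart in both genes, and both calls were kept in every setting tried. Tmem43, the head-to-head neighbour of Chchd4, was not called and had a log2 fold change of −0.23. The presequence peptidase, which cuts the targeting signal in the matrix, was not called in either subunit on the authors' scale, while Pmpcb was called under library totals (log2 fold change 0.28, adjusted p = 0.034). Pmpcb was at 128 and 139 CPM in the knockout libraries, against 120.3 CPM in the control (109 to 131), and Pmpca was at 46.4 and 47.6 CPM in the knockout libraries, against 48.3 CPM in the control (46.7 to 49.97), so that the groups overlapped in both.

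**Figure D3:**
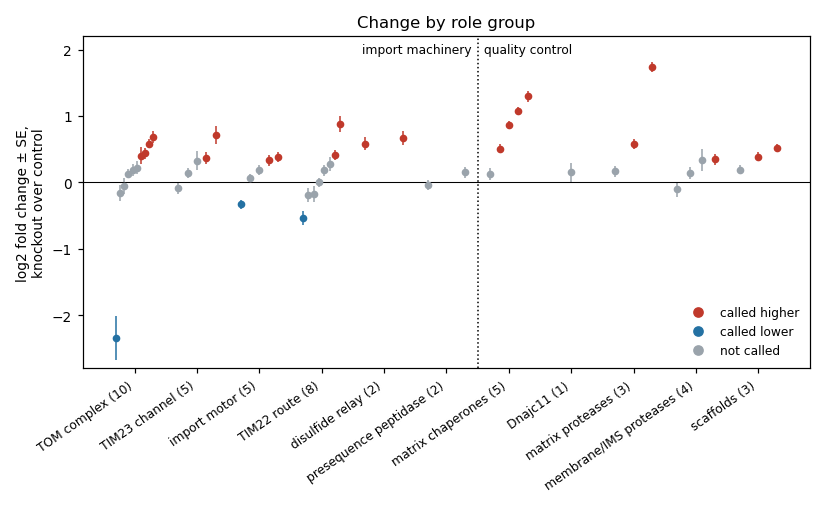
Log2 fold change of knockout over control with its SE (vertical axis) for all 48 genes, grouped by role along the horizontal axis with the number of genes in brackets. The highest points are Lonp1 at 1.74 and Hspe1 at 1.29, the lowest is Tomm20l at −2.34, and all 3 genes called lower are in the import machinery.

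Matrix chaperones were the role group with the highest median, 0.87, and 4 of 5 were higher. Together they summed to 1419 CPM in the knockout and 728 CPM in the control. Hspa9 (ENSMUSG00000024359), the matrix Hsp70 that both pulls chains through the channel and helps them fold, was at 674 and 692 CPM in the knockout libraries, against 324 CPM in the control (306 to 343). Hspd1 (ENSMUSG00000025980), the Hsp60 barrel in which matrix proteins fold, was at 292 and 305 CPM in the knockout libraries, against 163 CPM in the control (157 to 169.9). Hspe1 (ENSMUSG00000073676), the Hsp10 lid of that barrel, was at 261 and 275 CPM in the knockout libraries, against 109 CPM in the control (100.2 to 118). In all 3 genes the lower knockout library was far above the highest level a control library can have. The log2 fold changes were 1.07 ± 0.06 for Hspa9 (adjusted p = 1.5e-05), 0.87 ± 0.06 for Hspd1 (4.6e-05) and 1.29 ± 0.08 for Hspe1 (1.5e-05), and each stayed called with only the nearer knockout value. Annotated pseudogenes bear the names of Hspd1 (5), Hspe1 (6) and Hspa9 (1), so some reads of these genes may have been set aside or shared in counting.

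Dnaja3, the J protein that serves Hspa9 in folding, was at 115 and 121 CPM in the knockout libraries, against 82.6 CPM in the control (77.7 to 87.4), a log2 fold change of 0.51 ± 0.07 (adjusted p = 0.0013). Counting Hspa9 with the import motor, where it also works, gave 13 higher and 3 lower of 33 import genes, 8 higher of 15 quality control genes and a difference between the medians of 0.16. Trap1, the Hsp90 relative of the matrix, was at 51.9 and 53.1 CPM in the knockout libraries, against 47.99 CPM in the control (42.95 to 53.02), and was not called (adjusted p = 0.35). Dnajc11, an outer-membrane J protein that associates with MICOS, was at 27.2 and 29.7 CPM in the knockout libraries, against 25.6 CPM in the control (20.3 to 30.9), with overlap and no call.

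Hspd1 and Hspe1 start head to head from a shared stretch of chromosome 1, which is shown because both genes rose. The window from 250 bases before to 50 bases after the Hspe1 start (RefSeq, GRCm38.p6, chr1:55087898-55088197, plus strand) shares 285 bases with the window of 1 of the 2 annotated Hspd1 starts and 4 bases with that of the other, which is the one counted for Hspd1 in the motif shares. The capitals mark a pair of overlapping matches to the heat shock element, in which the blocks GAA, TTC and GAA are set 2 bases apart, at positions −89 to −72 from the start at 0, on either strand. The second match overlaps a match to the ETS element CCGGAAG.
Hspe1: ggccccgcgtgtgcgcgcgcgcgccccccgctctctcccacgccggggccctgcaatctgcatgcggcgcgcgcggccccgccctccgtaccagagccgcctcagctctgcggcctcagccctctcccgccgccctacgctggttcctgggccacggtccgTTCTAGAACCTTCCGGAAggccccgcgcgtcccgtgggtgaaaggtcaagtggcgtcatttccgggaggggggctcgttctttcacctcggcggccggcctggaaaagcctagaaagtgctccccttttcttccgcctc
The heat shock element was found in 2 of the 40 genes with a RefSeq window (5%), Hspe1 and Timm9, the last of which was not called, and in 0.417% of 10319 windows of listed genes and 0.529% of all 27025 windows. Hsf1, the factor that binds it, was at 19.8 and 22.3 CPM in the knockout libraries, against 17.5 CPM in the control (15.4 to 19.6), and was not called (adjusted p = 0.14). A match is a description of letters and not evidence of binding.

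The matrix proteases held the gene with the largest rise of the 48. Lonp1 (ENSMUSG00000041168), the protease that degrades misfolded and oxidized matrix proteins, was at 92.8 and 98.6 CPM in the knockout libraries, against 28.3 CPM in the control (27.2 to 29.4), a 3.38-fold higher mean. The 3 control libraries were within a narrow band, and the log2 fold change was 1.74 ± 0.08 (adjusted p = 3.5e-06, and 0.00065 with only the nearer knockout value). Clpx, the unfoldase that feeds the ClpP protease, was at 71.0 and 76.9 CPM in the knockout libraries, against 49.6 CPM in the control (48.9 to 50.3), a log2 fold change of 0.57 ± 0.07 (adjusted p = 0.00078). Clpp, the protease chamber it works with, was at 43.7 and 48.3 CPM in the knockout libraries, against 41.01 CPM in the control (38.3 to 43.7). The lower knockout library of Clpp lay at the very edge of the control range, and its log2 fold change of 0.16 was not called (adjusted p = 0.21, and 0.036 under library totals). The difference between Clpx and Clpp was not tested.

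The window around the Lonp1 start (RefSeq, GRCm38.p6, chr17:56626854-56627153, minus strand, 250 bases before to 50 after) is shown because Lonp1 had the largest rise. None of the motifs listed for the search was present in it. The capitals mark a match to TGACGTNA, a relative of the cyclic AMP response element that factors of the ATF family bind. This motif was added after the window had been read.
Lonp1: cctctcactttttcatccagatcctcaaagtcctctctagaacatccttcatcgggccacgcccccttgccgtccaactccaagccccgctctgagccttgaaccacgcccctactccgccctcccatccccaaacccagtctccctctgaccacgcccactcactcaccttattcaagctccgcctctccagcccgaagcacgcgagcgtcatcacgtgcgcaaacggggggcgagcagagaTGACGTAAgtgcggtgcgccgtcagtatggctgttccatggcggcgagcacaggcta
It ends at the annotated start, counted as position 0, and was present in 2 of 40 windows (5%), those of Lonp1 and the uncalled Trap1, against 5.05% of windows of listed genes. The element TGATGNAA bound by C/EBP and ATF dimers was found in 0 of 40 windows, against 2.25% of windows of listed genes and 4.06% of all windows.

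Further motifs were searched on both strands in the same 40 windows, beside the CCAAT box, which was present in 32.5% of them and in 38.5% of windows of listed genes. The ETS element CCGGAAG was present in 42.5%, against 17.7% of windows of listed genes. It was found in 6 of 18 genes called higher and in 10 of 19 not called. The NRF1 element, GCGCA and GCGC with 1 free base between them, named for a regulator of nuclear genes of mitochondrial function, was present in 7 of 40 windows (17.5%), against 10.1% of windows of listed genes, and in 5 of 18 genes called higher against 2 of 19 not called. The matching letters are given for the genes called higher, with positions counted from the start at 0.
Tomm20, positions −20 to −11: GCGCGTGCGC
Pam16, positions −15 to −6: GCGCACGCGC
Chchd4, positions −196 to −187: GCGCGTGCGC
Dnaja3, positions −48 to −39: GCGCGTGCGC
Hspd1, positions −59 to −50: GCGCAGGCGC
Dnaja3 held another match after its start, and Timm8b and Spg7, which were not called, held the element as well. These counts are small and carry no test.

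Among proteases of the inner membrane and the space outside it, 1 of 4 was called higher, and the median log2 fold change was 0.24 (0.37 under library totals, with the same count). Afg3l2, a subunit of the protease facing the matrix, was at 68.2 and 77.9 CPM in the knockout libraries, against 57.4 CPM in the control (55.1 to 59.7), a log2 fold change of 0.34 ± 0.08 (adjusted p = 0.016). With only the nearer knockout value the adjusted p of Afg3l2 was 0.22. Its partner Spg7, whose human counterpart is mutated in a hereditary spastic paraplegia, was at 31.8 and 34.3 CPM in the knockout libraries, against 35.6 CPM in the control (30.5 to 40.6), so the groups overlapped. Spg7 had a log2 fold change of −0.11, and of 0.02 under library totals. Yme1l1, the protease facing the intermembrane space, was at 25.0 and 26.5 CPM in the knockout libraries, against 23.3 CPM in the control (21.6 to 24.98), and was not called (adjusted p = 0.32). Htra2, a soluble protease of that space, was at 8.96 and 9.93 CPM in the knockout libraries, against 7.37 CPM in the control (5.80 to 8.93), with a log2 fold change of 0.34 (adjusted p = 0.17).

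Scaffold genes of the inner membrane were higher in 2 of 3 cases. The prohibitins Phb1 and Phb2 build a ring together that surrounds the inner-membrane proteases. Phb2 was at 157 and 159.8 CPM in the knockout libraries, against 110.8 CPM in the control (107 to 115), a log2 fold change of 0.52 ± 0.06 (adjusted p = 0.00061). Phb1 was at 107 and 113 CPM in the knockout libraries, against 96.02 CPM in the control (90.9 to 101). Both knockout values of Phb1 were above the controls, but the log2 fold change of 0.19 ± 0.07 did not pass (adjusted p = 0.082, and 0.010 under library totals). Stoml2, a stomatin-like protein that works beside them, was at 97.5 and 100.2 CPM in the knockout libraries, against 75.7 CPM in the control (73.5 to 77.9), a log2 fold change of 0.38 ± 0.07 (adjusted p = 0.0036, and 0.060 with only the nearer knockout value).

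**Figure D4:**
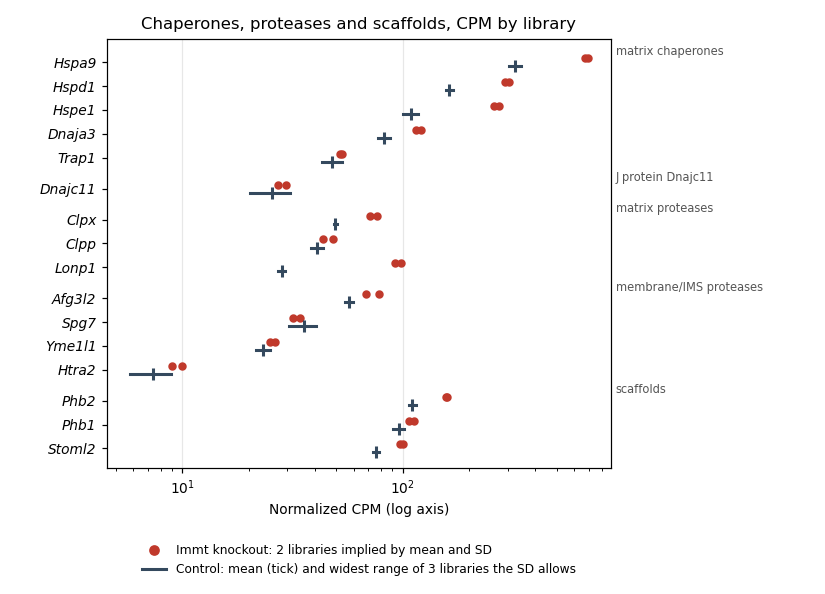
Normalized CPM (log axis) of the 16 quality control genes, grouped by role and ordered within a role by control mean, with red points for the 2 knockout libraries, as worked out from their mean and SD, and dark bars for the control mean (tick) and the widest range its 3 libraries can have. In 13 genes both red points lie right of the bar, with the widest gap at Lonp1 (92.8 and 98.6 CPM against 28.3 CPM).

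Of the 24 called genes, 13 were called in every setting tried that gave them a value, namely Tomm20, Tomm20l, Tomm5, Timm8a1, Chchd4, Gfer, Dnaja3, Hspa9, Hspd1, Hspe1, Clpx, Lonp1 and Phb2.

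A wider list of 42 other genes of mitochondrial protein insertion, processing, folding and degradation, with cytosolic chaperones and transcription factors linked to them, gave 14 higher, 3 lower and 25 not called, with a median log2 fold change of 0.14. That is 33.3% higher and 7.14% lower, against 13.3% and 12.9% of all listed genes. The largest rises were in the transcription factors of the integrated stress response, which in mammals respond to mitochondrial damage. Atf5 was at 296 and 299.7 CPM in the knockout libraries, against 34.4 CPM in the control (29.4 to 39.4), and Atf4 was at 231 and 266 CPM in the knockout libraries, against 38.5 CPM in the control (34.6 to 42.5). Ddit3, which encodes CHOP, was at 36.4 and 46.7 CPM in the knockout libraries, against 10.6 CPM in the control (9.89 to 11.2). All 3 factors stood far apart between the groups, with log2 fold changes of 3.09, 2.67 and 1.93 and adjusted p values of 8.8e-07, 1.2e-06 and 2.1e-05.

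Among the mitochondrial genes of that list, the inner-membrane protein gene Ghitm was at 743 and 752 CPM in the knockout libraries, against 274 CPM in the control (266 to 282), a log2 fold change of 1.44 ± 0.06 (adjusted p = 1.6e-06). Chchd10, a small protein of the intermembrane space, was at 1691 and 1727 CPM in the knockout libraries, against 959 CPM in the control (886 to 1032), a log2 fold change of 0.83 ± 0.07 (adjusted p = 6.6e-05). Immp2l, a subunit of the inner-membrane peptidase, was at 18.7 and 19.3 CPM in the knockout libraries, against 9.10 CPM in the control (7.57 to 10.6). Clpb, a disaggregase of the intermembrane space, was at 30.03 and 30.03 CPM in the knockout libraries, against 17.7 CPM in the control (15.9 to 19.6). Knockout libraries were above all controls in these 4 genes, and the log2 fold changes of Immp2l and Clpb were 1.02 (adjusted p = 0.00081) and 0.74 (adjusted p = 0.0010). In the cytosol, where Hsp70 and Hsp90 deliver precursors to Tomm70a, all 3 chaperone genes of the list were higher, with Hsp90ab1 at 1387 and 1431 CPM in the knockout libraries, against 824 CPM in the control (735 to 913, log2 fold change 0.77, adjusted p = 0.00023).

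The genes of outer-membrane insertion had 0 of 6 called in the limma test, with 1 higher and 2 lower at an unadjusted p below 0.05, and 2 higher under library totals. Mtch2, an insertase, and Mtx2, a partner of the sorting machinery that inserts barrel proteins, had log2 fold changes of 0.19 each (adjusted p = 0.011 for Mtch2 and 0.027 for Mtx2 under library totals), and Romo1 in the inner membrane −0.07. In the outer-membrane group both knockout values lay above the controls for 1 gene and below them for 3, against 24.5% and 23.9% of all listed genes. Those below were Samm50, Mtch1 and Mtx3, with log2 fold changes of −0.10, −0.20 and −0.45 (0.03, −0.07 and −0.32 under library totals). The genes of the wider list called lower, chosen here after their values were seen, were the MICOS subunit Micos10, the J protein Dnajc28 and the ATPase Afg1l. Their log2 fold changes were −0.23, −0.49 and −0.43. None of these 3 was called under library totals, where 19 of the 42 were higher and 0 lower. On that scale 3113 of all 15116 listed genes were higher and 1363 lower.

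**Figure D5:**
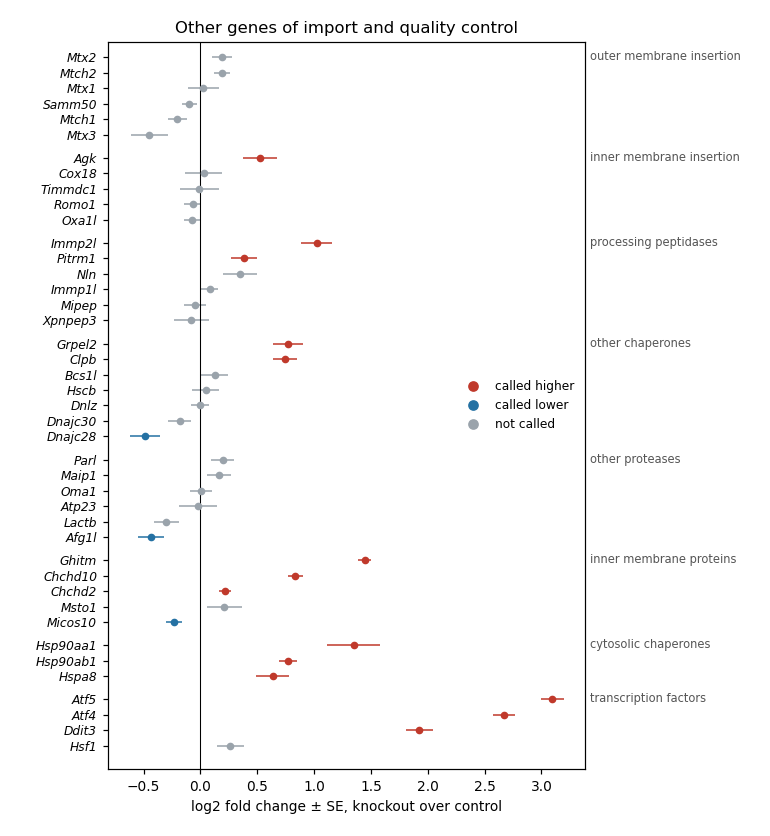
Log2 fold change of knockout over control with its SE (horizontal axis) for 42 further genes of import and quality control, in 8 groups named at the right. Atf5, Atf4 and Ddit3 lie furthest to the right at 3.09, 2.67 and 1.93, and none of the 6 genes of outer-membrane insertion was called on the authors' scale plotted here.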

How the data were processed

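Bulk RNA was sequenced by the authors from 5 mouse hearts as oligo-dT primed 3′ tag libraries with molecular identifiers. The submitters' processing notes name edgeR 4.0.16, featureCounts, Subread 2.1.1, SAMtools 1.22.1, STAR 2.7.11 and the GRCm39 build, without roles, and strand use and the filter on low genes are not given in the sources used here. The deposited signal is a mean normalized CPM per group, with its SD. The table also holds the authors' own log2 fold changes, F statistics, p-values and adjusted p-values, none of which were used. Counts per library were not used here, so no count model was run. Control library sizes were derived from the CPM that 1 read is worth, as seen in genes detected in a single library. The 2 knockout sizes were those at which low knockout values most often came out as whole reads. With either size, 87.1% of the 961 values so used were whole reads within 0.01 reads, which describes the fit and is not a separate check.

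Variances on the log2(mean + 0.5 CPM) scale came from the deposited SDs by the delta method (3 residual degrees of freedom, 5.50 prior degrees of freedom at the median) and were moderated with a trend in limma 3.58.1 (R 4.3.3), two-sided, with Benjamini-Hochberg adjustment over 15116 genes and calls at an adjusted p below 0.05. P-values set the difference between the groups against a spread estimated from these libraries and, through the prior, from other genes. Tested on simulated data for knockout against control over 15116 genes, the procedure recovered 36% of 50 genes changed 1.3-fold, 72% at 1.5-fold, 98% at 2-fold and 100% at 3-fold. Small changes can therefore be missed. In the simulation only these genes changed and all genes shared the same spread beyond counting error, whereas 3955 genes were called in the data. The rates of recovery may thus differ in the data.

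Knockout libraries are the mean ± SD divided by the square root of 2. The control range is the widest that 3 values with that mean and SD can have. Neighbouring genes and pseudogenes were read from GENCODE M21 by name. Promoter windows (40 of 48 genes matched by symbol) came from RefSeq, GRCm38.p6, and motifs were searched in the first window listed for a gene. Full values are given for every called gene, and values for the 2 uncalled genes of each role with the highest control mean. Some further uncalled genes were given after their values were seen. From the wider list, up to 8 called genes with the smallest p and 3 uncalled genes with the highest control mean are named, beside Immt. The genes and lists were chosen with earlier results of these data known. Alternatives were library totals, totals without the mitochondrial genome, a minimum mean of 5 CPM, pseudocounts of 0.1 and 2 CPM, no variance trend, an adjusted p below 0.01, leaving out a library, and other class borders.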

Additional observations from a re-analysis of the deposited data

How the results depend on the processing

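Under library totals 23 import genes were called (21 higher, 2 lower) against 15 on the authors' scale, with 11 calls gained and 1, Dnajc19, lost among the 48 genes. With an adjusted p below 0.01, 2275 of all listed genes were called against 3955, and Tomm70a, Timm50, Pam16 and Afg3l2 were lost. Leaving out a library, as a bound per gene, gave 1346 to 2759 called genes of all listed, 6 to 12 import genes, 7 to 9 quality control genes and a difference between the class medians of 0.16 to 0.20. The lowest counts came from keeping, gene by gene, the nearer of the knockout values, so that the kept values can stem from either library. That setting leaves 1 knockout value per gene and takes the spread from the control alone. A call lost there can therefore reflect the smaller test as well as the value left out. For the control, the bound moved the mean only and kept the deposited SDs as input. Lonp1 then had an adjusted p of 3.6e-46 in the limma test, against 3.5e-06 in the main one. Values so small arise because the spread came almost wholly from the trend over all genes, with little weight on each gene's own SDs. The adjusted p values and calls of this setting are therefore not comparable with those of the others. Without the variance trend Tomm70a, Timm50, Dnajc15, Dnajc19, Pam16 and Afg3l2 were not called (10 import and 8 quality control genes remained past the threshold). Pseudocounts of 0.1 and 2 CPM and totals without the mitochondrial genome changed no call of the 48 genes, and a minimum mean of 5 CPM changed none of those it kept. It left out Tomm20l, so 14 import genes were called. Without the 12 genes that have an exon of another gene in their last 500 bases, an alternative chosen after seeing the data, 11 of 22 import and 9 of 14 quality control genes were called and the median difference was 0.14. It was 0.19 without Dnajc11. The signs of the uncalled Tomm34, Timm17b, Pmpca and Spg7 turned under library totals, and those of Tomm34 and Timm8b when a library was left out. Causes were not tested. No paired analysis was possible because the deposited columns carry no value of a numbered library.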
